A study of Mus musculus with 6 samples.

Results

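The transporters described here are 9 genes of the solute carrier families that move organic anions, organic cations and carnitine across renal epithelium, *Slc22a6*, *Slc22a8*, *Slc22a7*, *Slc22a12*, *Slco1a1*, *Slc22a2*, *Slc47a1*, *Slc22a4* and *Slc22a5*. They were chosen by symbol, and all 9 were present among the 55367 gene symbols of each library. RNA-seq covered DBA-positive kidney cells, DBA being a plant lectin that binds collecting duct epithelium, from mice at the time the labels give as Day115, and the methods name male mice given tamoxifen. WT mice received saline. ADPKD mice carried floxed *Pkd1* and Cre/Esr1, had *Pkd1* deleted by tamoxifen and received saline, and ADPKD+MMPP mice had the same deletion and received intravenous MMPP, a polyethylene glycol-incorporated melanin-like nanoparticle that chelates manganese. Each of the 3 groups had 2 libraries. The labels call the cells kidney tubular epithelial cells, and no label limits the Cre to a cell type. Whether the replicates came from separate mice is not stated, so the p-values measure the spread between these libraries. The protocol in the labels names both isolated DBA-positive cells and whole kidney as the RNA source.

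Most of these transporters are textbook features of the proximal tubule. OAT1 (*Slc22a6*) and OAT3 (*Slc22a8*) take up organic anions such as drugs and urate from blood in exchange for dicarboxylates, and OAT2 (*Slc22a7*) carries anions and nucleotides. URAT1 (*Slc22a12*) reabsorbs urate at the apical membrane, and OATP1A1 (*Slco1a1*) is an apical anion transporter that is known to be higher in male than in female mouse kidney. OCT2 (*Slc22a2*) takes up organic cations from blood and MATE1 (*Slc47a1*) extrudes them into urine. OCTN2 (*Slc22a5*) is the carnitine transporter and OCTN1 (*Slc22a4*) is best known for carrying ergothioneine.

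The values are FPKM as the authors deposited them, that is, the fragments of a gene scaled to its length and to the library's size. Low FPKM values fell on steps of whole reads, which gave depths of 30.6 to 33.1 M reads for the WT and ADPKD libraries but 11.8 and 10.9 M reads for ADPKD+MMPP, so that the treated libraries had the least depth. Of the low values, 37.0% to 38.8% were odd read numbers in untreated libraries, against 8.41% and 8.01% in treated ones. The difference lies between the treated group and the rest, so it and the treatment cannot be told apart. *Pkd1*, the deleted gene, had 17.7 and 17.2 FPKM in WT, 7.64 and 8.91 in ADPKD, and 4.34 and 3.99 in ADPKD+MMPP, lower in every library of both knockout groups. *Aqp2*, the water channel of principal cells, was between 677 and 3555 FPKM in all libraries, while the vasopressin receptor gene *Avpr2* stayed at or under 0.0587 FPKM. Of the exon bases of *Avpr2*, 81.3% are shared with *Arhgap4*. How reads of that stretch were counted is not given, so the level of *Avpr2* is uncertain.

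Several of the genes lie next to each other. *Slc22a8* (chr19:8591254-8611835) and *Slc22a6* (chr19:8618039-8628299) are neighbours on the plus strand of GRCm38, 6203 bases apart in GENCODE vM21. *Slc22a5* (chr11:53864542-53891660) and *Slc22a4* (chr11:53983123-54028090) lie on the minus strand with *Slc22a21* between them. RefSeq gave promoter windows of 300 bases, 250 before and 50 after the start site, for 7 of the 9 genes, and none was used for *Slc22a7* and *Slc47a1*. The windows of both neighbouring pairs are shown, since the members of each pair had different levels across the groups. They are read 5′ to 3′ on the strand of the gene in GRCm38.p6, and lie at chr19:8617746-8618045 for *Slc22a6*, chr19:8592932-8593231 for *Slc22a8*, chr11:54028055-54028354 for *Slc22a4* and chr11:53891654-53891953 for *Slc22a5*. Capitals mark the letters of a cyclic AMP response element half-site, read on the opposite strand, in *Slc22a5*.
Slc22a6: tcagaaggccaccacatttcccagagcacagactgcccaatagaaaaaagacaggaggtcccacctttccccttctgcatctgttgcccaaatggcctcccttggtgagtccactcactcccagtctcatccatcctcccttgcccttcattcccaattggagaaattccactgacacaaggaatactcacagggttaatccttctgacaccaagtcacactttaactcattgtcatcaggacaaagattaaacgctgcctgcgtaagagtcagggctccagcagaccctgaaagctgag
Slc22a8: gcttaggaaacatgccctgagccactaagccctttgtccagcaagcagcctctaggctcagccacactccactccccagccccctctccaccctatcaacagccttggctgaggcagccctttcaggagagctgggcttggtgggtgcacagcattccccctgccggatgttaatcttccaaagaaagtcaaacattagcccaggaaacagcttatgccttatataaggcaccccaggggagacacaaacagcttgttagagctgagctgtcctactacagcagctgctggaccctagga
Slc22a4: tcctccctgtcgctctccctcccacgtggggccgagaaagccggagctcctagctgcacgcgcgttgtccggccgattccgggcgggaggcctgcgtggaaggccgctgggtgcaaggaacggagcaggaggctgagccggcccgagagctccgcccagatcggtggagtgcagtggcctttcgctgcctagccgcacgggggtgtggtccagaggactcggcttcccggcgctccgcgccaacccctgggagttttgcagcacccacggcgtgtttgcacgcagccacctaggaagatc
Slc22a5: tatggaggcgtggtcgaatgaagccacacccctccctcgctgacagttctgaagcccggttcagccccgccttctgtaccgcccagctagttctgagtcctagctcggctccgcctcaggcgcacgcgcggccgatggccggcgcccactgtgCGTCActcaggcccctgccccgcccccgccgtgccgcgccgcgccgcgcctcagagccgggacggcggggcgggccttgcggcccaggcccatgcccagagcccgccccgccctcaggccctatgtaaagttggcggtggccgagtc

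The windows were searched on both strands for CAAAGTNCA, a site of HNF4, and TGACG, a half-site of the cyclic AMP response element. CAAAGTNCA has no match in the 7 windows, and 1.41% of the 32851 promoter windows in RefSeq hold it. TGACG is found in *Slc22a5* alone, at base -97 from the start site, against 20.8% of all windows. The windows of *Slc22a4* and *Slc22a5* have 69% and 72.7% G or C and hold 29 and 34 CG pairs, where the median window has 52.7% and 7 pairs. Those of *Slc22a6*, *Slc22a8* and *Slco1a1* have 50%, 55% and 42%, with 2, 1 and 0 CG pairs. These are matches of letters, chosen with the sequences in view.

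In WT cells *Slc22a5* was the highest of the transporters, with 27.2 and 26.7 FPKM, followed by *Slc22a12* with 23.8 and 7.51 FPKM. *Slc22a4*, *Slc47a1*, *Slc22a6* and *Slc22a8* came next at 1.22 to 6.38 FPKM, and neighbours in this order overlapped between libraries, while *Slc22a2*, *Slco1a1* and *Slc22a7* were lowest. In ADPKD the order was led by *Slc22a4* and *Slc22a5*, whose libraries overlapped, and only *Slc22a5* and the next gene, *Slc47a1*, were separated from each other. In ADPKD+MMPP *Slc22a6* was highest at 149 ± 2.30 FPKM (SD, n = 2), followed by *Slc22a12* at 103 ± 0.722 (SD, n = 2) and *Slc22a5* at 70.4 ± 1.42 (SD, n = 2), with no overlap between neighbours in the order. Summed over the 9 genes, the level was 44.9 to 73.2 FPKM in WT and 63.6 to 86.7 in ADPKD, and it reached 403 to 404 with MMPP.

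**Figure D1:**
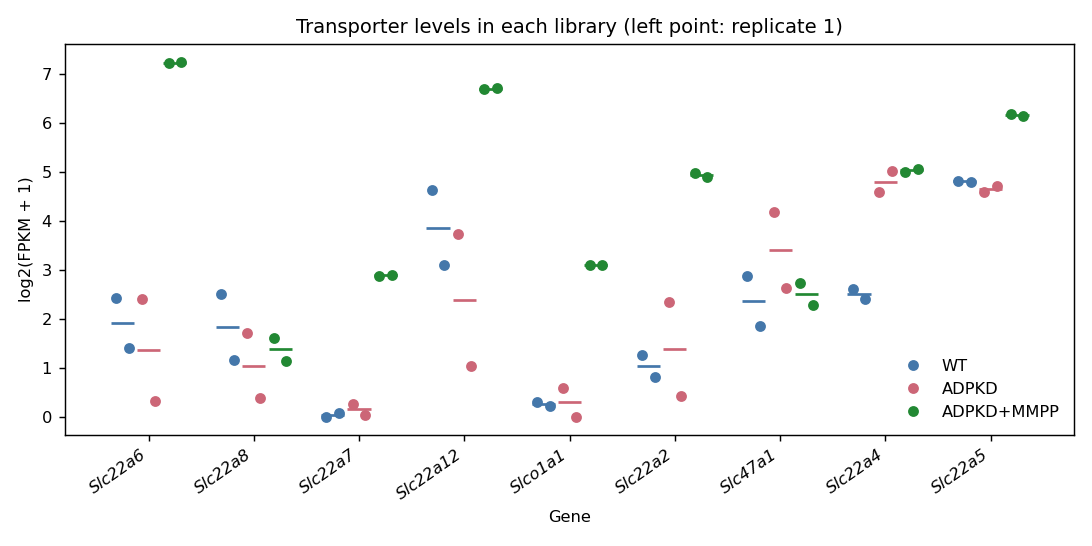
Levels of the 9 transporter genes as log2(FPKM + 1) on the vertical axis, with 1 point per library (left point replicate 1, right point replicate 2) and a short line at the mean of each group. The treated libraries lie above the other 4 for 6 genes, *Slc22a4* is low in WT only, and the replicates of WT and ADPKD are far apart for several genes.

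The replicates of a group were not equally close for all genes. The ADPKD libraries differed 17.0-fold for *Slc22a6*, 11.6-fold for both *Slc22a12* and *Slc22a2*, 7.52-fold for *Slc22a8* and 3.29-fold for *Slc47a1*, with replicate 1 higher each time. In WT the same 5 genes differed 1.83-fold to 3.85-fold, again with replicate 1 higher. The carnitine and ergothioneine transporters *Slc22a5* and *Slc22a4* differed at most 1.37-fold in either group. Most markers of the proximal tubule were also higher in replicate 1, 17 of 21 in WT and 20 of 21 in ADPKD. *Slc34a1*, the apical phosphate transporter, had 67.5 and 22.9 FPKM in WT and 44.9 and 4.44 FPKM in ADPKD, while *Gpx3*, the most abundant marker in these libraries, was slightly higher in replicate 2 of both groups. Their part in the spread of the transporters was not tested. In such a cell preparation fewer cells of a type and less RNA per cell cannot be told apart.

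The comparison of ADPKD with WT asked what loss of *Pkd1* did to these genes. *Slc22a4*, the ergothioneine transporter OCTN1, had 5.14 and 4.28 FPKM in WT and 22.9 and 31.3 FPKM in ADPKD. Both ADPKD libraries were above both WT libraries, by 4.46-fold to 7.33-fold from library to library. Its log2 fold change, on the log2(FPKM + 1) scale used throughout, was 2.29 (standard error 0.181, Benjamini-Hochberg adjusted p = 0.00304 in limma). It was called, which here means a fold change of at least 1.5 and an unadjusted P under 0.05 in limma, and it was the only member called of 9. *Slc22a7* and *Slco1a1* were tested only through the treated libraries, and without them it was 1 of 7. Among the 14862 genes tested, 14.2% were called higher and 12.5% lower in this comparison. Leukocyte markers also moved, 5 of the 6 tested being called higher and 1, *Cd79a*, lower. Their summed level was 41.0 to 46.3 FPKM in WT and 266 to 311 in ADPKD, with *Cd3e* near 0 in each. Much of the ADPKD sum was 1 gene, *Lyz2*, with 7.63 and 8.69 FPKM in WT and 188 and 224 in ADPKD. Stromal markers were called higher for 4 and lower for 1 of 6, and proximal tubule markers higher for 6 and lower for 1 of 21. *Cubn*, 1 of these 6, was tested only through the treated libraries. Without it 5 were called higher and 1 lower of 20. Intercalated cell markers were called lower for 8 of 8, podocyte and endothelial markers for 5 of 5 each, and markers of the thick limb and distal tubule for 4 of 7, while of 8 principal cell markers 1 was called higher. The part of these lists in the level of *Slc22a4* was not tested.

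The other 8 genes were not called between ADPKD and WT. *Slc22a12*, the urate transporter URAT1, had 23.8 and 7.51 FPKM in WT and 12.2 and 1.05 FPKM in ADPKD, and its log2 fold change was -1.48 (standard error 0.926, limma adjusted p = 0.281). *Slc47a1*, the cation exporter MATE1, had 6.38 and 2.60 FPKM in WT and 17.1 and 5.18 FPKM in ADPKD, with a log2 fold change of 1.04 (standard error 0.579, limma adjusted p = 0.234). For both genes the groups overlapped. The log2 fold changes of *Slc22a6* and *Slc22a8* were -0.56 and -0.78, that of *Slc22a2* was 0.36, and those of *Slc22a7* and *Slco1a1* were 0.11 and 0.03. *Slc22a5* differed by -0.15, and both ADPKD libraries were slightly below both WT libraries at 23.2 and 25.1 FPKM. The count of called members rested on the ADPKD libraries: without replicate 1 it was 4, with *Slc22a6*, *Slc22a12* and *Slc22a2* lower, and without replicate 2 it was 3, with *Slc22a2* and *Slc47a1* higher beside *Slc22a4*.

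Treatment of ADPKD mice with MMPP went with higher levels of most of these transporters. Of the 9 genes, 6 were called higher in ADPKD+MMPP against ADPKD and none lower, where 27.9% of the tested genes were called higher and 43.0% lower. *Slc22a7* and *Slco1a1* reached 1 FPKM in the treated libraries alone, so their entry to the test depended on this group. Of the other 7, 4 were called, and their median log2 fold change was 1.51, where all tested genes had a median of -0.36. Both comparisons with ADPKD use the same ADPKD libraries, so that a high or low ADPKD library moves both.

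OAT1 showed the largest difference among the members in FPKM as deposited, while after the centring described further on URAT1 did. *Slc22a6* had 4.27 and 0.251 FPKM in ADPKD and 147 and 150 FPKM in ADPKD+MMPP. Both treated libraries were above every other library, by 34.5-fold to 600-fold over the ADPKD libraries. The log2 fold change was 5.87 (standard error 0.695, limma adjusted p = 0.000584). Its neighbour *Slc22a8*, which encodes OAT3, had 2.28 and 0.303 FPKM in ADPKD and 2.04 and 1.22 FPKM in ADPKD+MMPP, and was not called (log2 fold change 0.33, standard error 0.591, limma adjusted p = 0.629). The treated libraries of *Slc22a8* lay within the range of ADPKD.

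Within a library, the ratio of *Slc22a6* to *Slc22a8* was 0.931 and 1.35 in WT, 1.87 and 0.827 in ADPKD, and 72.3 and 123 in ADPKD+MMPP. The pair was thus near 1 to 1 in all 4 untreated libraries, and no treated library was near that value. The annotation of the pair differs, *Slc22a6* having 1 transcript and *Slc22a8* 3, with 12.3% of its exon bases in exactly 1 of them, which bears on the treated libraries as described further on.

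The other anion transporters were low in untreated cells. *Slc22a7* (chr17:46432183-46438457, minus strand), which encodes OAT2, had 0 and 4 reads in WT, 14 and 2 in ADPKD, and 158 and 148 in ADPKD+MMPP. In FPKM this was 0 and 0.0615, 0.201 and 0.0297, and 6.37 and 6.46. Both WT libraries and ADPKD replicate 2 were near or under the floor of 3 reads. ADPKD replicate 1 was above it at 14 reads, and the treated libraries were well above it. *Slco1a1* (chr6:141907282-141946962, minus strand), the male-predominant anion transporter, had 0.236 and 0.171 FPKM in WT, 0.504 and 0 in ADPKD, and 7.54 in both treated libraries. The log2 fold changes against ADPKD were 2.74 (standard error 0.129, limma adjusted p = 3.22e-05) and 2.80 (standard error 0.207, limma adjusted p = 0.000106), and with the added 1 they understate the change of such low genes.

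*Slc22a12* (chr19:6535845-6543032, minus strand), the urate transporter URAT1, had 12.2 and 1.05 FPKM in ADPKD and 102 and 103 FPKM in ADPKD+MMPP. The treated libraries lay above all others, by at least 8.38-fold over the ADPKD libraries, and the log2 fold change was 4.32 (standard error 0.926, limma adjusted p = 0.00659). Of its exon bases, 30.1% are shared with *Nrxn2* on the opposite strand. Whether reads were counted by strand is not given in the sources used here, and without it the reads of the shared stretch cannot be told apart. *Nrxn2* itself was at 0.0123 to 0.547 FPKM in all libraries.

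The cation transporters parted in the treated cells. *Slc22a2* (chr17:12584132-12628488, plus strand), the basolateral uptake transporter OCT2, had 1.38 and 0.754 FPKM in WT, 4.08 and 0.352 FPKM in ADPKD, and 30.6 and 28.8 FPKM in ADPKD+MMPP. Its treated libraries were at least 7.06-fold above each ADPKD library, with a log2 fold change of 3.55 (standard error 0.592, limma adjusted p = 0.00236). *Slc47a1* (chr11:61343401-61378345, minus strand), the apical exporter MATE1 that acts after it, had 17.1 and 5.18 FPKM in ADPKD and 5.66 and 3.85 FPKM in ADPKD+MMPP. These groups overlapped and the gene was not called, at a log2 fold change of -0.89 (standard error 0.579, limma adjusted p = 0.203). Without ADPKD replicate 2 the log2 fold change was -1.67 and passed (limma adjusted p = 0.0250). The ratio of *Slc22a2* to *Slc47a1* was 0.217 and 0.291 in WT, 0.239 and 0.0679 in ADPKD, and 5.40 and 7.48 in ADPKD+MMPP, so that the order of the pair was turned round.

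Of the carnitine family, *Slc22a5*, which encodes OCTN2, had 23.2 and 25.1 FPKM in ADPKD and 71.4 and 69.4 FPKM in ADPKD+MMPP. The groups were 2.77-fold to 3.08-fold apart from library to library, with little spread within either group, and the log2 fold change was 1.51 (standard error 0.114, limma adjusted p = 0.000113). *Slc22a4* had 31.0 and 32.4 FPKM in ADPKD+MMPP, overlapping with the 22.9 and 31.3 FPKM of ADPKD, and was not called (log2 fold change 0.23, standard error 0.181, limma adjusted p = 0.279). Its higher level against WT was thus present in both knockout groups. The ratio of *Slc22a4* to *Slc22a5* was 0.189 and 0.160 in WT, 0.988 and 1.25 in ADPKD, and 0.434 and 0.466 in ADPKD+MMPP.

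**Figure D2:**
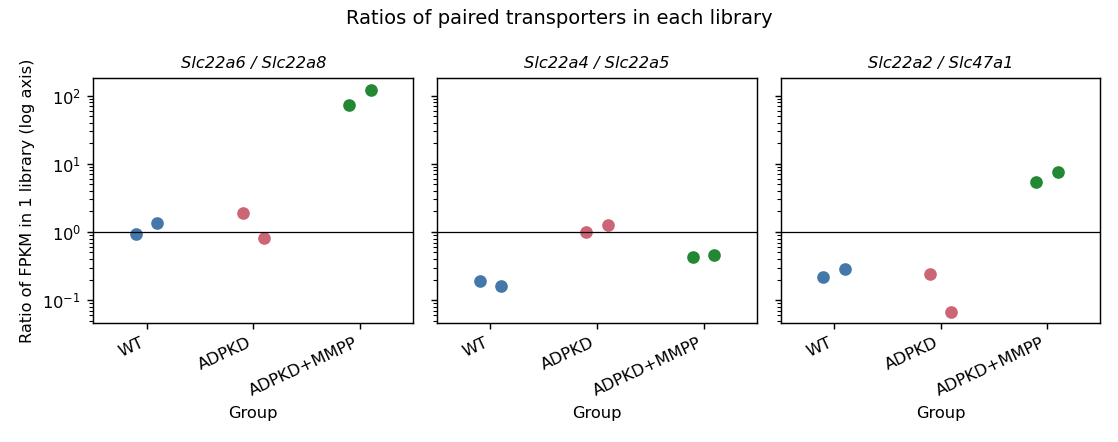
Ratio of FPKM within each library (log axis) for the neighbours *Slc22a6* and *Slc22a8*, the carnitine family pair *Slc22a4* and *Slc22a5*, and the cation uptake and efflux genes *Slc22a2* and *Slc47a1*, with 1 point per library and a line at 1. The ratios of the left and right panels are far higher in the treated libraries, and the second is highest in ADPKD.

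Against WT, 7 of the 9 genes were called higher in ADPKD+MMPP and none lower, where 30.1% of the tested genes were called higher and 43.8% lower. Without *Slc22a7* and *Slco1a1* these were 5 of 7. *Slc22a6* had a log2 fold change of 5.31, *Slc22a2* of 3.91, *Slc22a7* of 2.85, *Slco1a1* of 2.83, *Slc22a4* of 2.52 and *Slc22a5* of 1.36, all with adjusted p from limma at or under 0.00147. *Slc22a12* had 2.84 (limma adjusted p = 0.0312), and this call was lost without WT replicate 2, at 2.06 (limma adjusted p = 0.153), and without either treated library. *Slc22a8* and *Slc47a1* were not called, at -0.46 and 0.14. This comparison uses the treated libraries a second time and is no separate evidence on them.

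**Figure D3:**
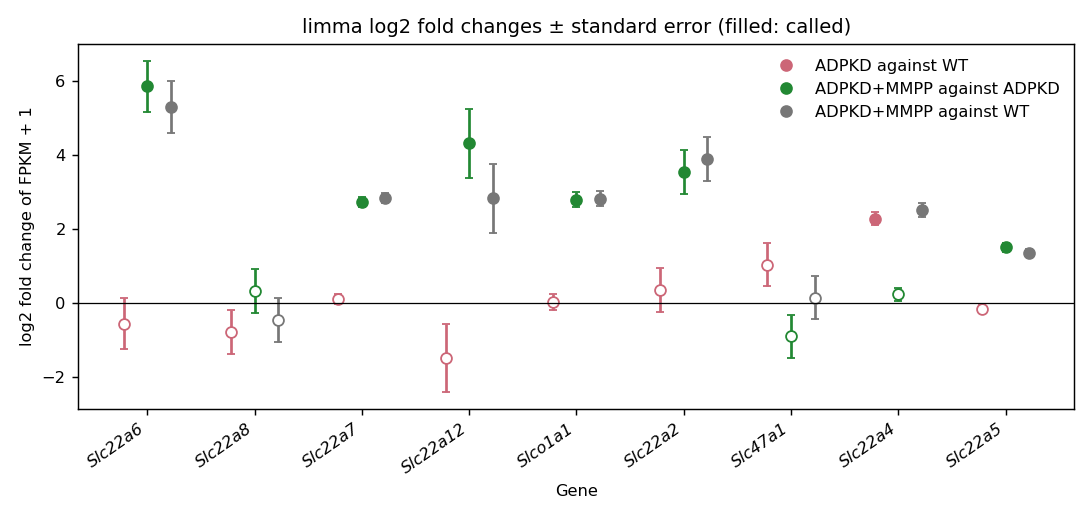
Log2 fold changes of FPKM + 1 from limma for the 9 genes in the 3 comparisons, with bars for the standard error and filled points for called genes. *Slc22a4* is the only gene called in ADPKD against WT, and 6 and 7 genes are called in the comparisons of ADPKD+MMPP with ADPKD and with WT.

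The treated libraries also differed from the others by gene structure. Protein-coding genes were sorted into 18 bins by the share of their exon bases that lies in exactly 1 annotated transcript. The median log2 fold change of ADPKD+MMPP against ADPKD was 1.09 in the bin of *Slc22a6*, where 88.6% to 100% of the bases do, and -1.64 in the bin of *Slc22a8*, where 9.02% to 15.2% do. The bins of the other 7 genes had medians from -1.39 (*Slc47a1*) to 0.17 (*Slc22a4*). In ADPKD against WT the medians of these bins were between -0.03 and 0.07. Structure and treatment cannot be told apart here, and this bears on any comparison between genes in the treated libraries.

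Each library was therefore also centred on the median of its bin, an alternative taken from earlier results on these data. After centring, *Slc22a6* kept a log2 fold change of 4.76 (limma adjusted p = 0.00106) against ADPKD, and *Slc22a12* had 5.70, *Slc22a2* 4.93, *Slc22a7* 4.12, *Slco1a1* 3.98 and *Slc22a5* 2.39, all called. *Slc22a8* was then called higher as well, with 2.27 (limma adjusted p = 0.0108), and against WT it turned from -0.46 to 1.51 (limma adjusted p = 0.0454). *Slc47a1* changed sign against ADPKD, from -0.89 to 0.75, without a call in either case, and was called against WT at 1.75 (limma adjusted p = 0.0257). The level of OAT3 and MATE1 in treated cells thus depended on this choice, while the 6 genes called against ADPKD from FPKM as deposited were called either way. *Slc22a4* had 2.27 in ADPKD against WT and 0.22 in ADPKD+MMPP against ADPKD, close to the values as deposited.

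**Figure D4:**
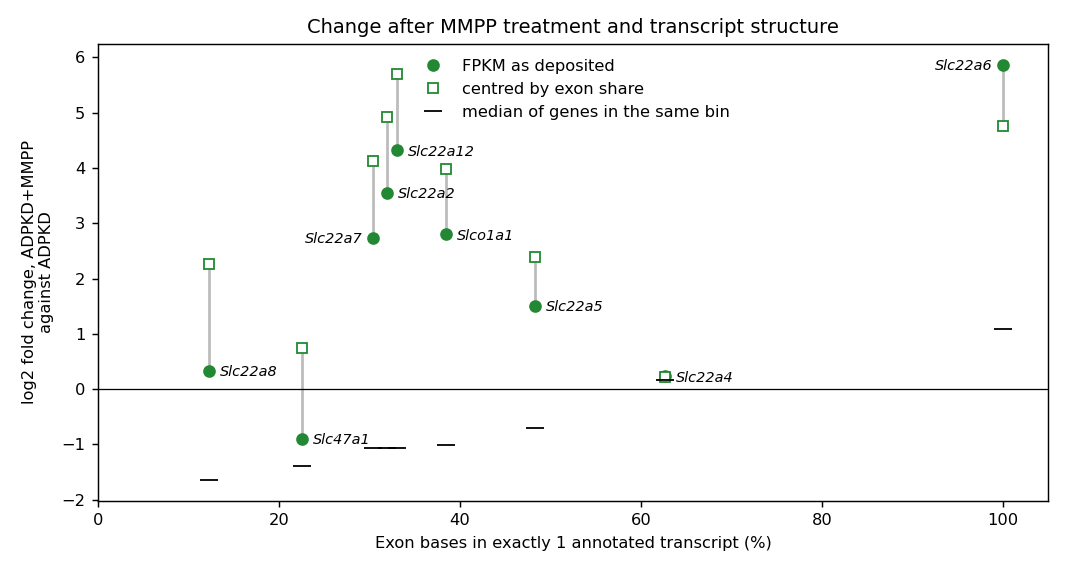
Log2 fold change of ADPKD+MMPP against ADPKD (vertical axis) against the share of exon bases that lies in exactly 1 annotated transcript (horizontal axis, %), with filled points for FPKM as deposited, open squares after centring by bin and dashes for the median of all genes in the bin. *Slc22a8* and *Slc47a1*, at the lowest shares, lie near or below 0 as deposited and above 0 after centring.

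Markers of the proximal tubule rose in the same libraries. Of 21 such markers, 17 were called higher and 1 lower with MMPP than in ADPKD, with a median log2 fold change of 2.63, and their summed level was 888 to 1235 FPKM in WT and 1707 to 2425 in ADPKD, and it reached 23965 to 25078 with MMPP. *Kap*, an androgen-dependent kidney gene, alone had 12822 and 12116 FPKM in the treated libraries. *Lrp2*, the endocytic receptor megalin, went from 9.80 and 4.86 FPKM in ADPKD to 68.7 in both. No marker of this list was at 0 in all libraries of a group. Of 8 tested principal cell markers 4 were called higher and 2 lower, and the sum of the 9 listed was 957 to 2502 FPKM in ADPKD and 5437 to 5458 in ADPKD+MMPP. Intercalated cell markers were called higher for 7 of 8, and podocyte markers lower for 3 of 5. Of the other marker lists, those of the thick limb and distal tubule were called higher for 3 and lower for 1 of 7, of endothelium lower for 3 of 5, of stroma higher for 3 and lower for 2 of 6, of leukocytes higher for 2 and lower for 4 of 6, and of hepatocytes higher for 2 and lower for 1 of 5. *Cubn* of the proximal tubule list and *Alb* of the hepatocyte list were tested only through the treated libraries. Without them 16 were called higher and 1 lower of 20, and 1 higher and 1 lower of 4. Beside all these counts, 27.9% of the tested genes were called higher and 43.0% lower in this comparison. What part these cell types had in the transporter levels was not tested.

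Set against the summed proximal tubule markers of the same library, the transporters fell into different patterns. *Slc22a6* was 0.176% and 0.0147% of that sum in ADPKD and 0.587% and 0.628% in ADPKD+MMPP, higher in both treated libraries and also above the 0.355% and 0.186% of WT. *Slc22a12* was 0.503% and 0.0614% in ADPKD and 0.407% and 0.430% in ADPKD+MMPP, within the range of ADPKD, and 1.93% and 0.845% in WT. *Slc22a2* was likewise within that range, at 0.122% and 0.120% after treatment. *Slc22a5* was 0.956% and 1.47% in ADPKD and 0.285% and 0.290% after treatment, and *Slc47a1* 0.703% and 0.304% in ADPKD and 0.0226% and 0.0161% after treatment, both below ADPKD. The most abundant marker alone made up much of each sum, *Gpx3* being 52.5% and 76.2% in ADPKD and *Kap* 51.1% and 50.6% in ADPKD+MMPP. Against the geometric mean of the same markers (with 1 added to each FPKM), *Slc22a12* had ratios of 0.531 and 0.118 in ADPKD and 0.979 and 0.977 in ADPKD+MMPP, and *Slc22a2* had 0.178 and 0.0395 and then 0.293 and 0.273, so that on this scale both treated libraries were above ADPKD for both genes. These values are a description with no test, and they rest on the list and the scale chosen. They also compare genes within the treated libraries, where the median gene differed by exon structure. The part of that difference in these patterns was not tested.

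Related families were read for the same comparisons. Of 30 further genes of the SLC22, SLC47 and SLCO families, 17 passed the filter, and after treatment of ADPKD mice 10 were called higher and 4 lower, beside 27.9% and 43.0% of all tested genes. Of the 10 called higher, 7 reached 1 FPKM in 2 libraries only through the treated group, the 3 genes named next among them, and of the 10 genes that passed without it 3 were called higher and 4 lower, with a median log2 fold change of -0.76. *Slc22a28* rose from 0.136 ± 0.192 to 33.4 ± 7.33 FPKM (SD, n = 2 each, log2 fold change 4.92), *Slc22a13*, an anion and nicotinate transporter, from 0.846 to 28.9 (4.19) and *Slco1a6* from 0.754 to 18.5 (3.54). *Slc22a28* belongs to a cluster of close relatives, among which reads may be split, so its value is uncertain. The 3 with the lowest values were *Slco4a1*, a thyroid hormone transporter, at -1.97, *Slco2b1* at -1.63 and *Slc22a23* at -1.23, all called lower. In ADPKD against WT 2 of the 17 were called higher and 1 lower, beside 14.2% and 12.5% of all tested genes. All of these calls were among the 10 genes that passed without the treated libraries. The higher ones were *Slco4a1* at 1.91 and *Slco2b1* at 1.94. All 3 genes with the largest rise have 71.5% or more of their exon bases in 1 transcript, against 39.1% or less for the 3 lowest.

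ATP-driven efflux pumps of the ABC family, which share substrates with the transporters above, did not follow a single direction. Of 10 pumps, 2 were called higher and 6 lower with MMPP than in ADPKD, where all tested genes were also called lower (43.0%) more often than higher (27.9%). In ADPKD against WT 5 were called higher and 2 lower, beside 14.2% and 12.5% of all tested genes. *Abcc2*, the apical anion pump MRP2, had 1.22 ± 0.490 FPKM in WT, 6.77 ± 1.23 in ADPKD and 27.9 ± 0.810 after treatment (SD, n = 2 each), called higher in both steps with log2 fold changes of 1.81 and 1.90. *Abcc6*, which passed the filter only through the treated libraries, was called higher after treatment at 1.40, and *Abcc5* had 0.21 without a call. Without *Abcc6*, 1 of 9 pumps was called higher and 6 lower after treatment, and 5 higher and 2 lower in ADPKD against WT. *Abcc4*, the apical pump MRP4 that exports urate and cyclic nucleotides, rose from 9.55 ± 0.0842 FPKM in WT to 16.6 ± 0.276 in ADPKD and fell to 0.410 ± 0.133 in ADPKD+MMPP (SD, n = 2 each). *Abcc3* and *Abcg2*, the urate pump BCRP, had -2.46 and -1.72 after treatment. *Abcc4* and *Abcc3* have 10.6% and 12.3% of their exon bases in 1 transcript, in the range in which the median gene was also lower, and *Abcg2* has 63.7%, in a range in which the median gene had 0.17.

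Transporters that supply exchange partners or handle urate and monocarboxylates were called higher for 7 of 11 and lower for 2 of 11 after treatment, beside 27.9% and 43.0% of all tested genes. *Slc5a8* and *Slc16a9* were tested only through the treated libraries, and of the other 9 genes 5 were called higher and 2 lower. *Slc5a8*, a sodium-coupled monocarboxylate transporter, had a log2 fold change of 3.77, *Slc13a2*, the dicarboxylate transporter NaDC1, had 2.51 and *Slc9a3*, the sodium-proton exchanger NHE3, had 2.43. *Slc9a8* and the urate transporter gene *Slc2a9* were called lower at -1.53 and -0.86, and *Slc5a12* was not called at -0.32. *Slc5a8*, *Slc13a2* and *Slc9a3* have 100%, 100% and 48.4% of their exon bases in 1 transcript. *Slc9a8*, *Slc2a9* and *Slc5a12* have 45.6%, 24% and 13.5%. In ADPKD against WT 3 of the 11 were called higher and 1 lower, beside 14.2% and 12.5% of all tested genes. All of these calls were among the 9 genes that passed without the treated libraries. Scaffolds and transcription factors known to act on such transporters split evenly, with 4 of 9 called higher and 4 lower after treatment. Beside them, 27.9% of all tested genes were called higher and 43.0% lower. *Maf*, *Slc9a3r1*, the scaffold NHERF1, and *Bcl6* had 2.15, 2.10 and 1.28, while *Slc9a3r2* and *Hnf4a* had -3.54 and -2.84. *Maf*, *Slc9a3r1* and *Bcl6* have 83.7%, 100% and 88.7% of their exon bases in 1 transcript, and *Slc9a3r2* has 15.5%. In the treated libraries the median gene also differed by this share, and its part in the split was not tested. *Hnf4a*, a regulator of proximal tubule genes, was at 7.28 and 5.37 FPKM in ADPKD and at 0.0351 and 0 in ADPKD+MMPP, and has 9.78% of its exon bases in 1 transcript. Of the same 9 scaffolds and transcription factors, 2 were called higher in ADPKD against WT, *Hnf4a* among them, and 2 lower. The shares of all tested genes were 14.2% and 12.5%.

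Genes known to depend on androgens in mouse kidney were looked at because of *Slco1a1*. Of 7, 4 were called higher and 2 lower after treatment of ADPKD mice, beside 27.9% and 43.0% of all tested genes. In ADPKD mice compared with WT 1 was called higher and 1 lower, beside 14.2% and 12.5% of all tested genes. *Acsm3* and *Timd2* were tested only through the treated libraries. Without them 3 of 5 were called higher and 2 lower after treatment, and 1 higher and 1 lower in ADPKD against WT. *Slc7a13*, an amino acid transporter of this list and of the proximal tubule list, had 1.75 and 0.0291 FPKM in ADPKD and 161 and 159 FPKM in ADPKD+MMPP. It has 100% of its exon bases in 1 transcript, in the range in which the median gene was also higher. Of 4 tested Y-linked genes 3 were called lower after treatment, beside 43.0% of all tested genes, and none differed by a call in ADPKD against WT. The 3, *Ddx3y*, *Eif2s3y* and *Uty*, have 12.4%, 57.1% and 45.85% of their exon bases in 1 transcript. The part of this share in their levels was not tested. All 4 were found in every library, and *Xist* was at or under 0.0474 FPKM in all 6.

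The genes with the profile nearest to the mean of the transporters, by Euclidean distance of centred log2(FPKM + 1) over the 6 libraries, were *Hdhd3*, *Oxld1*, *Chac2*, *Khk* and *Gm13655*, at distances of 0.260 to 0.352. *Khk*, ketohexokinase of fructose metabolism, had 21.1 and 13.9 FPKM in WT, 23.6 and 9.62 in ADPKD, and 74.2 and 81.5 in ADPKD+MMPP. Among the members themselves the distance to that mean ran from 0.783 for *Slco1a1* to 3.90 for *Slc22a6*. The 5 genes were picked as the nearest of all tested genes, so their smaller distances say nothing about the transporters. The mean includes *Slc22a7* and *Slco1a1*, which passed the filter only through the treated libraries.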

How the data were processed

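RNA-seq libraries of DBA-positive kidney cells, 2 each of WT, ADPKD and ADPKD+MMPP mice, were analysed from the FPKM that the authors deposited for each library. Per the labels, reads were processed with HISAT2 2.1.0 and featureCounts 1.6.0 on mm10. The annotation release, the strand setting and the way FPKM was made from counts are not given in the sources used here. The authors used DESeq2 on counts. It was not used here, because FPKM are not counts.

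limma 3.58.1 (R 4.3.3) was fitted once to log2(FPKM + 1) of the 6 libraries for 14862 genes, those that reached 1 FPKM in 2 or more libraries. Calls needed a 1.5-fold change and an unadjusted P under 0.05, and Benjamini-Hochberg adjusted p-values over all tested genes are given beside. Depth came from FPKM times exon length in GENCODE vM21, which gave whole reads, within 0.03 of a read, for 98.2% to 98.9% of values under 40 reads, and 53186 symbols matched 1 gene. Intervals for counting error were not made, so precision rests on having 2 libraries per group. The test step was tested on simulated data.

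The 9 genes and all lists were chosen with earlier results of these data known. Of each further list the 3 highest and 3 lowest tested changes in ADPKD+MMPP against ADPKD are named, and the 5 nearest profiles. A gene chosen by this rule is not reported here. Further lists held related transporters, ABC pumps, partner transporters, scaffolds and regulators, androgen-dependent and sex-linked genes, and markers of tubular and other cell types. Alternatives covered the pseudocount, filter, scaling, prior variance, groups in the fit, thresholds, a replicate block, centring by exon structure, the marker scale and leaving out each library.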

Additional observations from a re-analysis of the deposited data

How the results depend on the processing

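For single genes, 160 of the alternative values of ADPKD against WT kept their call or its absence, as did 164 for ADPKD+MMPP against ADPKD. Against WT the treated group kept 159. The numbers of called members moved as follows. In ADPKD against WT it was 3 in place of 1 with a replicate block, and between 1 and 4 when 1 library was left out, with 4 without ADPKD replicate 1 and 3 without ADPKD replicate 2. In ADPKD+MMPP against WT it ran from 4 to 7 when 1 library was left out. The 4 came without either treated library, where *Slc22a7* and *Slco1a1* failed the filter and 7 members were tested, and a lone library was taken to vary like the others. In ADPKD+MMPP against ADPKD it was 4 of 7 in the same fits, and 7 without ADPKD replicate 2, with the block and after centring by exon structure. *Slc22a2* in ADPKD against WT turned from 0.36 to -0.60 without ADPKD replicate 1 and was 1.31 without ADPKD replicate 2, and *Slc22a8* in ADPKD+MMPP against WT from -0.46 to 1.51 after centring. *Slc22a12* in ADPKD+MMPP against WT lost its call with an added 0.1, with no filter, with a common FPKM sum, without WT replicate 2 and without either treated library, at log2 fold changes between 2.06 and 2.93. The cause was not tested.

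The main fit did not pair libraries by replicate number. Deviations of the same number correlated at 0.129, 0.0137 and -0.00796 between the groups. With 2 libraries per group this cannot decide whether libraries of the same number belong together. With the block *Slc22a8* and *Slc47a1* passed in ADPKD against WT, at -0.78 and 1.04, and *Slc47a1* in ADPKD+MMPP against ADPKD (adjusted p = 0.0325). Relative to the proximal tubule markers, the log2 change of ADPKD+MMPP against ADPKD was -3.43 for *Slc22a4* and -2.08 for *Slc22a5*, -4.20 and -2.81 without the most abundant marker, and -1.51 for *Slc22a5* with a geometric mean. Scaling moved the median log2 fold change of all genes in ADPKD+MMPP against ADPKD from -0.36 to between -0.73 with a common FPKM sum and 0.01 with quantile normalization, where 51.0% of called genes were higher against 39.3% as deposited, and after centring by exon structure 58.1% were.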
